A study of Homo sapiens with 12 samples.

Results

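The heat shock chaperones and their transcription factor were followed in THP1 monocytes by the counts of 10 genes, taken by symbol from the 58735 genes of the count table. They were HSF1, the heat shock transcription factor, the HSP70 genes HSPA1A, HSPA1B and HSPA8, the HSP110 gene HSPH1, the J-domain gene DNAJB1, the HSP90 genes HSP90AA1 and HSP90AB1, the small heat shock protein gene HSPB1 and the mitochondrial chaperonin gene HSPD1. All 10 passed the filter on low counts and were tested among 25873 genes. THP1 is a human monocytic leukaemia line, grown here in 4 groups of 3 libraries: THP1 mono-culture for 24 h, and co-culture for the same time across a transwell membrane, in which the partner was control ECs, senECs or else senECs treated with EGCG. The ECs were human umbilical vein endothelial cells. The control ECs had received DMSO, the senECs 10 µM etoposide for 24 h to induce senescence, and the EGCG-treated senECs the same etoposide followed by 100 µM epigallocatechin gallate (EGCG). All 12 cultures were grown in endothelial medium and were then given LPS (2 h at 100 ng/ml), so that no library shows these genes without LPS. Mono-culture and control EC libraries carry the numbers 1, 2 and 3 in the labels, and the libraries of both senEC groups carry 1, 2 and 5. The labels do not say whether they came from separate cultures, so that p-values measure the spread between these libraries, which may be technical.

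In the heat shock response, HSF1 is held inactive by chaperones, and is released to form trimers when unfolded proteins occupy them. The trimer binds heat shock elements, which are inverted repeats of a short GAA unit, and drives the inducible chaperones. HSP70 proteins bind exposed stretches of unfolded chains with J-domain partners such as DNAJB1, and HSP110 proteins such as HSPH1 exchange their nucleotide. HSP90 proteins act later on signalling kinases and receptors, small heat shock proteins hold aggregating chains, and the chaperonin encoded by HSPD1 folds proteins in the mitochondrial matrix. In monocytes, HSP90 clients include kinases of the pathways that LPS activates.

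The heat shock element is shown first, because it is the DNA sequence that the 9 chaperone genes may share. RefSeq promoter windows (build GRCh38.p14, 250 bases before to 50 bases after an annotated start) matched 9 of the 10 genes with 15 windows, and HSF1 had no entry. A 2-unit element, GAANNTTC or TTCNNGAA, stood in 9 windows of 8 genes, against 13.5% of all 35116 windows. These letters read the same on both strands, and both spellings can overlap. A 3-unit element, in which a further GAA or TTC follows after any 2 bases so that GAA and TTC alternate, contains both 2-unit spellings. It was searched on both strands and stood in 4 windows of 4 genes (HSPA8, HSP90AA1, HSP90AB1 and HSPD1), against 0.490% of all windows. HSPH1 held neither in its window. The stretches around the elements of 5 genes follow, each cut so that it holds no base of an exon of the gene, with the elements in capitals. HSPA1A and HSPA1B are shown because the genes are near copies, HSP90AB1 for its pair of 3-unit elements, HSPB1 because it varied most with the library number, and DNAJB1 for a pair of 2-unit elements. Such a pair was not particular to HSP90AB1. HSPA8 held 3-unit elements 230 and 55 bases before the start of its window, and HSPD1 overlapping ones from 245 bases before. These lie in exons of their genes and are not shown.
HSPA1A, chr6:31815392-31815463, plus strand: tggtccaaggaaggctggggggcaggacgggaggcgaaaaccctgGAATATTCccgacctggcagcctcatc
HSPA1B, chr6:31827588-31827685, plus strand: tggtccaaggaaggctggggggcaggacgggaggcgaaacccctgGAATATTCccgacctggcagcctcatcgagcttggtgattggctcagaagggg
HSP90AB1, chr6:44247733-44247865, plus strand: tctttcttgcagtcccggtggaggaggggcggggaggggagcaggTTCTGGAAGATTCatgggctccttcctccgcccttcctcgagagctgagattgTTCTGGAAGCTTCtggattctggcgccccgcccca
HSPB1, chr7:76302446-76302543, plus strand: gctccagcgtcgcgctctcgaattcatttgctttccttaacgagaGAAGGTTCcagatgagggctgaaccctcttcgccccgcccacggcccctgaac
DNAJB1, chr19:14518421-14518519, minus strand: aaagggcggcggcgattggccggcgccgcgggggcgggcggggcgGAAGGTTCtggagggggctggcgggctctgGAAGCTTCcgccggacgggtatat
The element of HSPA1A began 106 bases before its annotated start, and that of HSPA1B 105 bases before. HSPB1 carried a single one 182 bases before its start. HSP90AB1 had 3 windows, of which 1 held elements, 165 and 112 bases before the start of that window. DNAJB1 had 3 windows, of which 2 held elements, and those shown began 77 and 47 bases before the start of theirs. For HSP90AB1 and DNAJB1 the start used here lies downstream of another annotated start of the gene. A match of these letters is a description of the sequence and not a measured binding site.

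The libraries held between 15439836 and 22092600 counts, so that counting error is small for 8 of the 10 genes and largest for HSPA1A and HSPA1B. Levels are given as CPM, the counts of a gene relative to the total of its library, scaled by TMM factors that ran from 0.912 in senEC library 5 to 1.04 in mono-culture library 1. Among 14 endothelial markers, 10 were below a mean of 1 CPM, CDH5 had at most 1 count in a library and MMRN1 had 0. PECAM1 and EGFL7, which monocytic cells also express, made up most of the summed endothelial level, which was 158 to 187 CPM in mono-culture, 151 to 182 CPM in control EC, 198 to 234 CPM in senEC and 191 to 232 CPM in EGCG-treated senEC co-culture. Without PECAM1 and EGFL7 the sum was 3.06 to 7.38 CPM over the 12 libraries, with the ranges of the 4 groups overlapping. Of 12 monocytic markers, 10 were above a mean of 10 CPM, while CD68 had a mean of 0.384 CPM and MPO 4.29 CPM.

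Compared per length, the 10 genes spanned more than 2 orders of magnitude. HSP90AB1, the constitutive cytosolic HSP90, was the most abundant at 924 ± 87 FPKM (CPM per kilobase of exon, SD over 12 libraries), and held 41.5% ± 1.84 of the summed level of the 10 genes. HSPA8, the constitutive HSP70, followed at 355 ± 35 FPKM and HSP90AA1, the inducible cytosolic HSP90, at 332 ± 33 FPKM. These neighbours did not differ beyond their spread, with HSPA8 the higher in 6 of 12 libraries. HSPB1 stood at 258 ± 45 FPKM and HSPD1 at 256 ± 22 FPKM, and HSPB1 was the higher in 7 of 12 libraries. A gap separated these 5 genes from DNAJB1 at 34.5 ± 2.9 FPKM, HSPH1 at 33.9 ± 2.3 FPKM and HSF1 at 28.1 ± 2.6 FPKM. DNAJB1 exceeded HSPH1 in 6 of 12 libraries, whereas HSPH1 exceeded HSF1 in 12 of 12.

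The stress-inducible HSP70 genes were the lowest of the set. HSPA1B had a level of 3.19 ± 0.76 FPKM and HSPA1A of 2.74 ± 0.39 FPKM, and HSPA1B was the higher in 9 of 12 libraries. Their summed level was 1.67% ± 0.23 of the HSPA8 level (SD, n = 12), with a range of 1.39% to 2.21%. HSPA1A and HSPA1B share much of their sequence, as given below. Whether shared reads were counted is not stated, so that the levels of both genes and of their sum may be too low. HSP90AA1 was at 35.9% ± 1.94 of the HSP90AB1 level, between 33.0% and 40.3% in single libraries.

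**Figure D1:**
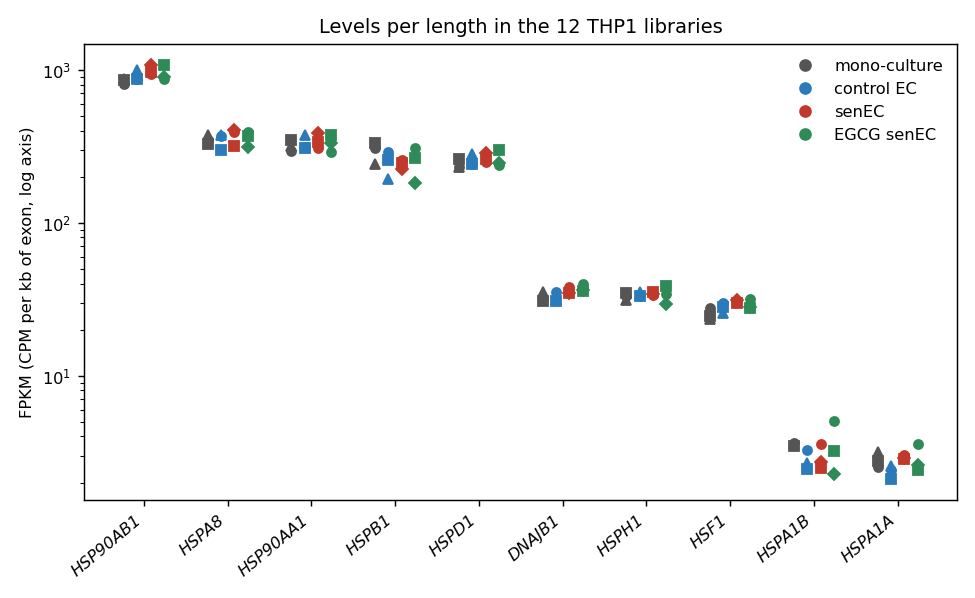
Level of the 10 genes in each of the 12 THP1 libraries in FPKM (log axis), ordered by mean level, with colour for the group and marker shape for the replicate number of the library. HSP90AB1 lies above all others in every library, and HSPA1A and HSPA1B lie below the other 8 genes.

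Whether the endothelial partner altered these genes was asked in 6 comparisons: each co-culture against mono-culture, and the co-cultures against each other. None of the 10 genes passed the threshold in any of them by edgeR's quasi-likelihood test (threshold of 0.05 after Benjamini-Hochberg adjustment across the 25873 genes), and DESeq2's test called 0 as well. In the same test, 0.143% of all genes were called for control EC co-culture against mono-culture, 0.309% for senEC and 0.213% for EGCG-treated senEC co-culture. In this test, no gene of any kind was called between the co-cultures (0.00% in each of the 3 comparisons). At an unadjusted p under 0.05, 2 of the 10 genes, HSF1 and HSP90AB1, were counted in senEC co-culture against mono-culture, and none of the 10 elsewhere. In the senEC comparison 11.0% of all genes reached that level, and 19.2% of the 9351 genes with a mean of at least 10 CPM, a level that 8 of the 10 genes have, so that the count lies near the background. The shares of all genes at that level were 6.52% for control EC and 8.58% for EGCG-treated senEC co-culture against mono-culture, 6.61% for senEC against control EC, 4.55% for EGCG-treated senEC against control EC and 2.22% for EGCG-treated senEC against senEC co-culture. Calls between the co-cultures depended on the model and filter. A replicate block called 153 genes for senEC against control EC, 13 for EGCG-treated senEC against senEC and 34 for EGCG-treated senEC against control EC. A test of every gene with a count called 114, 14 and 43 in this order.

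The intervals give the range around each estimate, before adjustment for the number of genes. They do not measure how large a change the adjusted test would miss. For the 8 genes other than HSPA1A and HSPA1B, the 95% intervals of all 6 comparisons lay between a fold of 0.649 (HSPB1, senEC against mono-culture) and 1.39 (HSF1, the same comparison). For HSPA1A and HSPA1B they reached from 0.561 to 1.75.

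**Figure D2:**
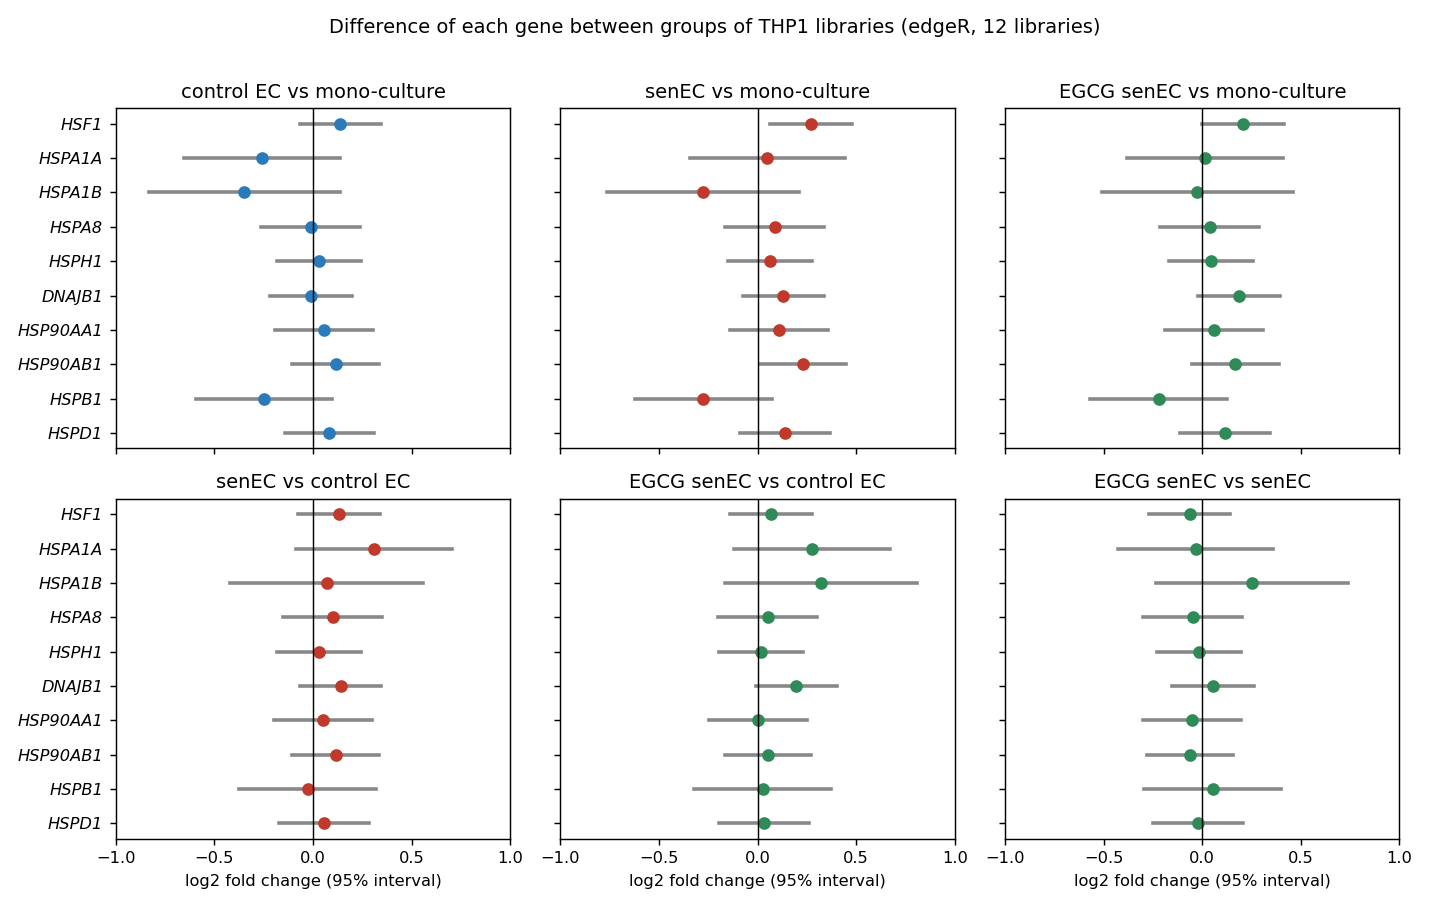
Log2 fold change of the 10 genes in each of the 6 comparisons (points) with its 95% interval (lines), from 1 edgeR model of the 12 libraries. Intervals are widest for HSPA1A and HSPA1B, and those of HSF1 and HSP90AB1 lie above 0 in the comparison of senEC with mono-culture before adjustment for the number of genes.

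HSF1 (ENSG00000185122.10, chr8:144291591-144314722, plus strand), the master regulator of the response, had the lowest levels in mono-culture. Its level was 147, 129 and 125 CPM in mono-culture libraries 1, 2 and 3, and 157, 150 and 135 CPM in the control EC libraries. It reached 161, 158 and 165 CPM in senEC libraries 1, 2 and 5, and 167, 146 and 150 CPM in the EGCG-treated senEC libraries. The 3 senEC libraries lay above all mono-culture and all control EC libraries, while the other groups overlapped. Beside this, 8.18% of all genes were separated in that direction between senEC and mono-culture and 5.31% between senEC and control EC libraries, and 15.6% and 8.11% of those with a mean of at least 10 CPM. The log2 fold change of HSF1 was 0.27 ± 0.10 (SE) for senEC against mono-culture (unadjusted p = 0.0131, adjusted p = 0.321), 0.21 for EGCG-treated senEC (adjusted p = 0.584) and 0.14 for control EC co-culture (adjusted p = 0.902). Without TMM factors, a setting chosen after seeing the data, the first of these was 0.19 (unadjusted p = 0.0913) and the senEC libraries overlapped both mono-culture and control EC libraries. With a replicate block in which numbers 3 and 5 were joined, HSF1 was called for senEC against mono-culture (log2 fold change 0.27, adjusted p = 0.0392). That fit called 1407 of 25873 genes in this comparison. With a replicate block of the separate numbers HSF1 was not called (log2 fold change 0.22, edgeR adjusted p = 0.309). The 3 comparisons against mono-culture share its libraries. A small part of the exons of HSF1 (2.62%) overlaps DGAT1 on the opposite strand, and whether counting used the strand is not given in the sources used here.

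The inducible HSP70 genes HSPA1A (ENSG00000204389.9, chr6:31815464-31817946, plus strand) and HSPA1B (ENSG00000204388.6, chr6:31827735-31830255, plus strand) encode the same kind of cytosolic chaperone and are the classical targets of HSF1. Their coding sequences were identical at 1919 of 1923 bases, and 63.2% of all 150-base windows of HSPA1A transcripts occurred unchanged in HSPA1B transcripts. How the counting assigned such reads, or whether it dropped them, is not stated, so that the split between them and their summed level are uncertain. HSPA1B exons also overlap the processed transcript AL671762.1 on the same strand over 36.5% of their length. They had 94 to 146 (HSPA1A) and 107 to 208 (HSPA1B) counts per library.

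HSPA1A was at 6.28, 6.84 and 7.88 CPM in mono-culture and at 6.00, 5.23 and 6.34 CPM with control ECs. With senECs it was at 7.54, 7.06 and 7.13 CPM, and with EGCG-treated senECs at 8.83, 5.97 and 6.43 CPM. The senEC libraries lay above the control EC libraries without overlap, and mono-culture overlapped both, although without TMM factors the control EC libraries were also below all of mono-culture. Of all genes, 5.31% were separated upward between senEC and control EC libraries. HSPA1B was at 9.08, 8.77 and 9.03 CPM in mono-culture and at 8.20, 6.19 and 6.72 CPM with control ECs, where all 3 libraries lay below mono-culture, as 6.51% of all genes did in that comparison. With senECs it was at 8.98, 6.25 and 6.89 CPM. Library 1 of EGCG-treated senEC co-culture held 12.7 CPM of HSPA1B, the highest value of the 12, and the other two held 8.07 and 5.73 CPM, the last being the lowest. The log2 fold changes of control EC co-culture against mono-culture were -0.26 ± 0.19 for HSPA1A and -0.35 ± 0.23 for HSPA1B (SE, adjusted p = 0.906 and 0.885). With the counts of both genes summed it was -0.31 ± 0.18 (unadjusted p = 0.101, adjusted p = 0.829), and the sum differed by -0.13 with senECs (adjusted p = 0.859) and by -0.01 with EGCG-treated senECs.

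Beside HSPA8, the summed HSPA1A and HSPA1B level per length was 1.83% ± 0.07 in mono-culture and 1.49% ± 0.08 with control ECs (SD, n = 3). The mono-culture values of 1.77% to 1.91% lay above those of control EC co-culture, 1.40% to 1.55%, and those of senEC co-culture, 1.39% to 1.69%, without overlap. With senECs the mean was 1.59% ± 0.17 and with EGCG-treated senECs 1.76% ± 0.39 (1.51% to 2.21%), and the 3 co-cultures overlapped. This ratio was not tested, and how often other ratios separate in this way was not computed. Of single genes, 6.51% were separated downward from mono-culture in control EC co-culture, and 2200 of 25873 in senEC co-culture.

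HSPA8 (ENSG00000109971.13, chr11:123057489-123063230, minus strand), which serves protein folding and clathrin uncoating without stress, spread as much within groups as between them. It was at 1676, 1585 and 1806 CPM in mono-culture, 1777, 1442 and 1805 CPM in control EC, 1902, 1528 and 1953 CPM in senEC and 1886, 1796 and 1523 CPM in EGCG-treated senEC co-culture. The 4 groups overlapped, and the group means spanned 0.10 on the log2 scale beside a pooled SD within groups of 0.16. Its partner HSPH1 (ENSG00000120694.19, chr13:31134974-31162388, minus strand), the nucleotide exchange factor, had group means between 278 and 290 CPM that spanned 0.06 on the log2 scale. Its extremes, 247 and 325 CPM, both came from EGCG-treated senEC libraries, numbers 5 and 2.

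DNAJB1 (ENSG00000132002.7, chr19:14514770-14529770, minus strand), the HSP40 co-chaperone that delivers substrates to HSP70, had the largest difference of the 10 genes between EGCG-treated senEC and control EC co-culture relative to its error. It was at 117, 113 and 130 CPM in mono-culture and 130, 112 and 115 CPM with control ECs. With senECs it was at 140, 127 and 127 CPM, and with EGCG-treated senECs at 146, 131 and 133 CPM. The 3 EGCG-treated senEC libraries lay above all 6 libraries of mono-culture and control EC co-culture, by a margin of 0.94 CPM to the nearest. Without TMM factors they overlapped both groups. With these factors 6.40% of all genes were separated upward from mono-culture and 4.04% from control EC co-culture, and 10.8% and 5.11% of those with a mean of at least 10 CPM. The log2 fold change against control EC was 0.20 ± 0.10 (unadjusted p = 0.0616, adjusted p = 0.979) and against mono-culture 0.19 ± 0.10 (unadjusted p = 0.0750, adjusted p = 0.619). Against senEC co-culture it was 0.05 with a 95% interval of -0.15 to 0.26. Exons of DNAJB1 overlap TECR on the opposite strand over 5.75% of their length.

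The HSP90 genes HSP90AB1 (ENSG00000096384.19, chr6:44246166-44253888, plus strand) and HSP90AA1 (ENSG00000080824.18, chr14:102080738-102139699, minus strand) stabilise kinases, receptors and HSF1 itself. HSP90AB1 was at 2411, 2565 and 2573 CPM in mono-culture and 2607, 2599 and 2971 CPM with control ECs. With senECs it was at 2780, 2874 and 3199 CPM and with EGCG-treated senECs at 2608, 3213 and 2659 CPM. All 9 co-culture libraries lay above the highest mono-culture library, although by only 25.8 CPM at the closest, and did so without TMM factors as well. In that direction 6.25% of all genes were separated from mono-culture in control EC, 8.18% in senEC and 6.40% in EGCG-treated senEC co-culture, and 8.57%, 15.6% and 10.8% of the genes with a mean of at least 10 CPM. The log2 fold change was 0.23 ± 0.10 for senEC against mono-culture (unadjusted p = 0.0417, adjusted p = 0.435), 0.17 for EGCG-treated senEC (adjusted p = 0.688) and 0.11 for control EC co-culture (adjusted p = 0.948). HSP90AA1 overlapped between all groups, at 1541 to 1818 CPM in mono-culture, 1626 to 1957 CPM in control EC, 1623 to 2017 CPM in senEC and 1514 to 1978 CPM in EGCG-treated senEC co-culture. Its log2 fold change for senEC against mono-culture was 0.11 with a 95% interval of -0.14 to 0.36 (adjusted p = 0.805).

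HSPD1 (ENSG00000144381.16, chr2:197486581-197516737, minus strand), the mitochondrial HSP60, was at 979, 1101 and 986 CPM in mono-culture and at 1034, 1030 and 1186 CPM with control ECs. With senECs it was at 1059, 1099 and 1219 CPM and with EGCG-treated senECs at 1013, 1274 and 1036 CPM, so that the groups overlapped. The log2 fold changes against mono-culture were 0.08, 0.14 and 0.12 in this order, with adjusted p from 0.691 to 0.970. Its 17 pseudogene rows together held 1.24% as many counts as the gene.

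**Figure D3:**
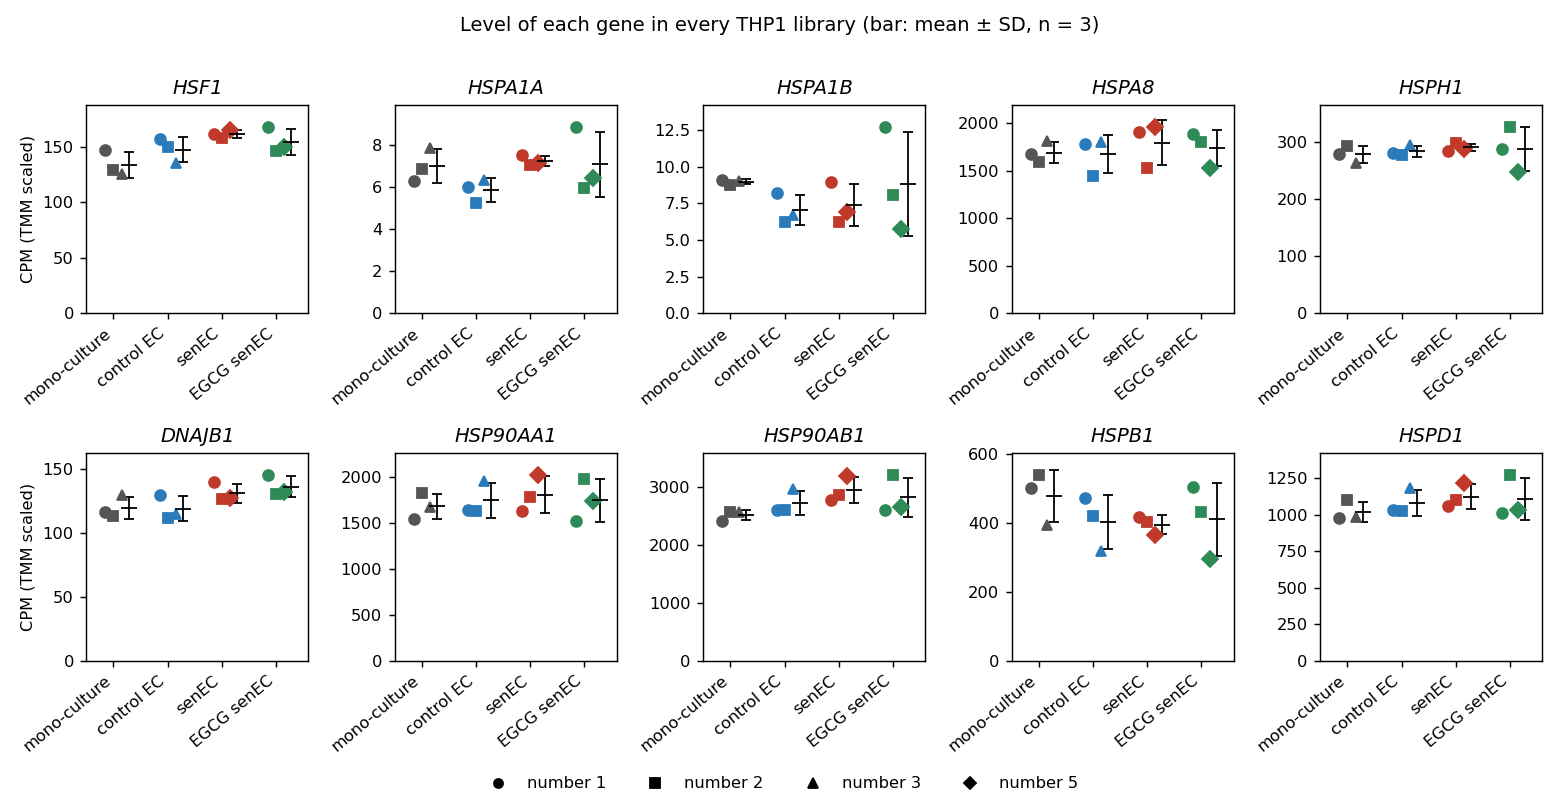
Level of each gene in CPM (linear axis from 0) in the 12 THP1 libraries by group, with marker shape for the replicate number and black bars for the mean ± SD of 3 libraries. Groups overlap for most genes, and the HSPB1 libraries numbered 3 or 5 are the lowest of their groups.

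HSPB1 (ENSG00000106211.8, chr7:76302544-76304295, plus strand), the small heat shock protein HSP27, differed with the library number and was not called in any comparison of cultures. It was at 501, 538 and 394 CPM in mono-culture libraries 1, 2 and 3 and at 471, 418 and 318 CPM with control ECs. In libraries 1, 2 and 5 it was at 417, 402 and 365 CPM with senECs and at 504, 430 and 296 CPM with EGCG-treated senECs. The library numbered 3 or 5 was the lowest in 4 of 4 groups. Across groups, these 4 libraries (296 to 394 CPM) lay below the 8 libraries numbered 1 or 2 (402 to 538 CPM) without overlap. The share of all genes separated in this way was not computed. With numbers 3 and 5 joined, 2682 of 25873 genes were called against number 1. In an edgeR model with group and number, HSPB1 was lower by 0.49 ± 0.10 on the log2 scale in number 3 against 1 (log2 fold change -0.49, adjusted p = 0.0001504) and by 0.45 ± 0.10 in number 5 against 1 (log2 fold change -0.45, adjusted p = 0.000450). The first call was lost without control EC library 3 (log2 fold change -0.45, adjusted p = 0.0992), and the second without EGCG-treated senEC library 1 (-0.32, adjusted p = 0.0824) or library 5 (-0.21, adjusted p = 0.313). Of all genes, 3.80% were called between numbers 3 and 1 and 8.16% between numbers 5 and 1. Between numbers 2 and 1, where 4.88% of all genes were called, its log2 fold change was -0.09 (adjusted p = 0.710). Against mono-culture its group differences were -0.25 for control EC, -0.28 for senEC and -0.22 for EGCG-treated senEC co-culture on the log2 scale (SE 0.17, adjusted p = 0.885, 0.577 and 0.748), with overlapping groups.

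The number term called 2 of the 10 genes, HSPB1 (adjusted p = 4.29e-07 for any difference between numbers) and HSPA1B (adjusted p = 0.0314), beside 9.61% of all genes. HSPA1B was lower in number 5 than in number 1, with a log2 fold change of -0.68 ± 0.20 (adjusted p = 0.0155, beside 8.16% of all genes called). That value was -0.47 without EGCG-treated senEC library 1 and -0.33 without library 5 of that group, and neither was called (adjusted p = 0.317 and 0.547). The call for any difference rests on few counts and on EGCG-treated senEC library 1, without which the adjusted p for any difference was 0.701. It was also lost without EGCG-treated senEC library 5 (0.153), senEC library 1 (0.115) or control EC library 1 (0.0865). HSPA8 was not called (adjusted p = 0.139), but was 1442 to 1796 CPM in number 2 against 1676 to 1902 CPM in number 1. Without senEC library 5, EGCG-treated senEC library 2 or EGCG-treated senEC library 5 its adjusted p was 0.00177, 0.0106 and 0.00557. HSP90AA1 ran the other way, at 1514 to 1640 CPM in number 1 and 1626 to 1978 CPM in number 2 (adjusted p for any difference 0.112), and was called without EGCG-treated senEC library 5 (0.00489) or control EC library 2 (0.0397). What a number stands for is not given in the sources used here.

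**Figure D4:**
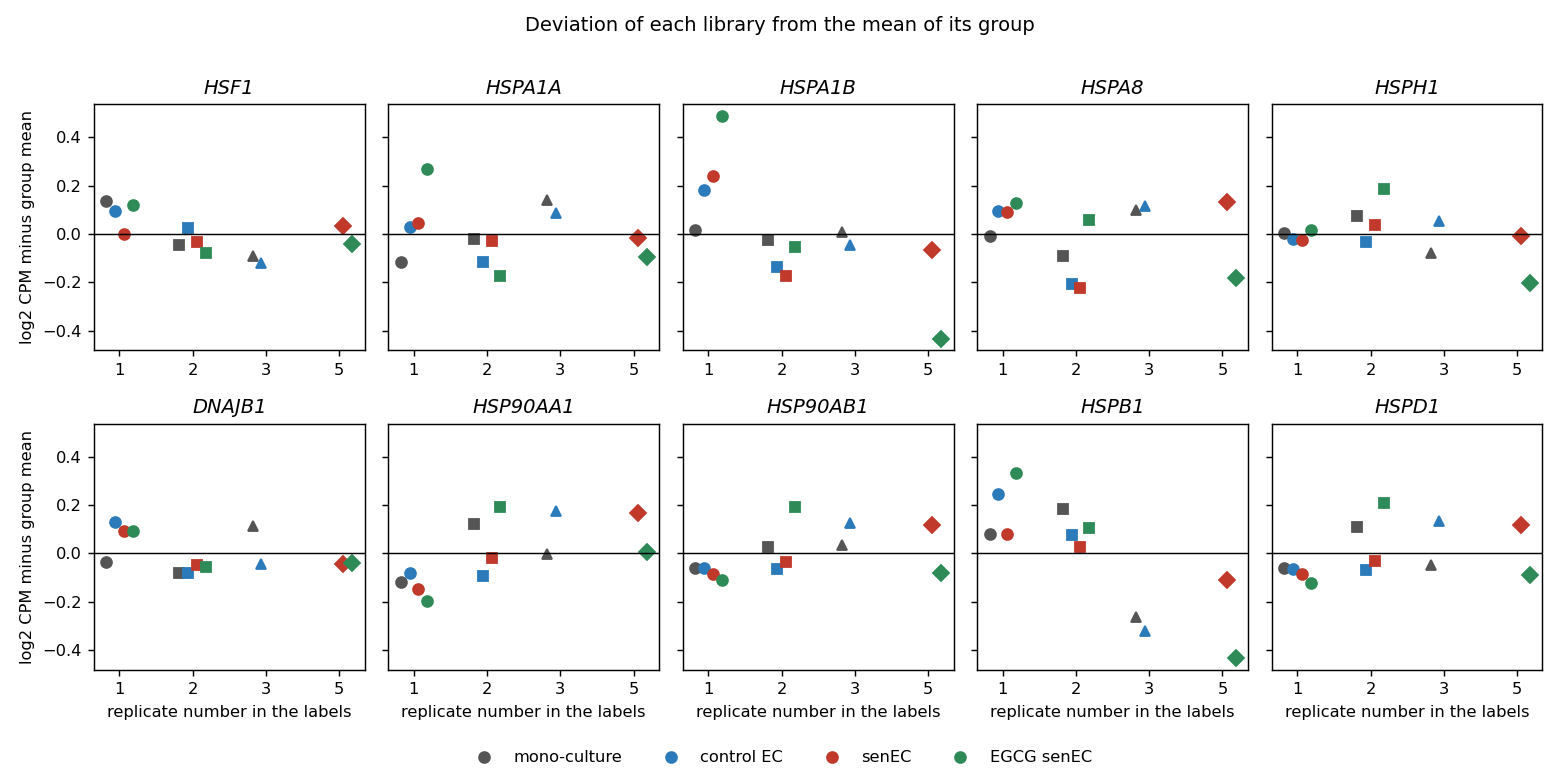
Deviation of each library from the mean of its group (log2 CPM) for the 10 genes, by the replicate number in the labels, with colour for the group. All 4 HSPB1 libraries numbered 3 or 5 lie below 0 and all 8 numbered 1 or 2 lie above it.

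The chaperones did not vary as a single block across the 12 libraries. HSP90AA1, HSP90AB1 and HSPD1 moved together (Pearson's r of log2 CPM 0.84 for the HSP90 pair, 0.92 for HSP90AA1 with HSPD1 and 0.93 for HSP90AB1 with HSPD1, n = 12 libraries). Without TMM factors these values were 0.64, 0.82 and 0.83. The same genes ran against the TMM factor of the library, with r of -0.86, -0.91 and -0.83, so that their CPM and the scaling move together, and the part of the scaling was not tested. HSPB1 went with HSPA1B (r = 0.71) rather than with this trio, and its r with the TMM factor was 0.54. The libraries share depth, scaling and the numbers above, so these are descriptions. Outside the gene lists, the genes most like the mean standardized level of the 9 chaperone genes were C6orf203 (r = 0.93, Spearman's rho 0.87), HTATSF1 (0.89, 0.87), MRPL16 (0.88, 0.81), MDH2 (0.88, 0.91) and TTI2 (0.88, 0.92), out of 9277 candidates with a mean of at least 10 CPM over the 12 libraries.

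The wider chaperone network was read through 6 lists. None of their genes passed the threshold in any of the 6 comparisons by edgeR's model of the group alone, and DESeq2 called 1, the HSP90 co-chaperone FKBP4 with senECs. A replicate block in edgeR changed this: it called FKBP4 in each co-culture and HSPE1 with senECs against mono-culture, and PFDN5 between senEC and control EC co-culture. With numbers 3 and 5 joined in the block, CCT3, CCT7, PFDN4, TRAP1, CLPP, STIP1 and HSPBP1 were called as well with senECs, and HSPBP1 also between senEC and control EC co-culture. Of all 25873 genes, the block called 469, 709 and 424 for control EC, senEC and EGCG-treated senEC against mono-culture. Between senEC and control EC co-culture it called 153. With numbers 3 and 5 joined, 1407 were called with senECs against mono-culture and 268 between senEC and control EC co-culture. In the model of the group alone, an unadjusted p under 0.05 was reached by 7.97%, 19.2% and 12.2% of the genes with a mean of at least 10 CPM for control EC, senEC and EGCG-treated senEC against mono-culture. Medians are set beside that of the 9351 genes with a mean of at least 10 CPM, which was 0.01 for control EC, 0.05 for senEC and 0.03 for EGCG-treated senEC co-culture against mono-culture on the log2 scale. For the 10 genes themselves the medians were 0.01, 0.10 and 0.05.

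Cytosolic TRiC and prefoldin, which fold actin and tubulin, had 14 genes tested. All 14 had a log2 fold change above 0 for senEC against mono-culture (median 0.23; without TMM factors 14 of 14 and 0.14), where 59.9% of the genes with at least 10 CPM did, and 6 had an unadjusted p under 0.05, beside 11.0% of all genes and 19.2% of those with at least 10 CPM. With control ECs 0 and with EGCG-treated senECs 1 of the 14 did. The lowest adjusted p was 0.288, for CCT3. CCT3, a TRiC subunit, had levels of 574, 605 and 584 CPM in mono-culture and 654, 715 and 817 CPM with senECs, with no overlap, as for 8.18% of all genes and 15.6% of those with at least 10 CPM. TCP1 had a mean of 664 CPM in mono-culture and 771 CPM with senECs, and CCT7 of 429 and 528 CPM. PFDN4, a prefoldin subunit and the most variable of the list, ran from 17.9 to 35.7 CPM within the senEC group. Without senEC library 5, which had the lowest TMM factor, 13 of 14 were above 0 with a median of 0.14. In control EC co-culture 12 of the 14 were above 0 (median 0.10). In EGCG-treated senEC co-culture 14 of 14 were (median 0.15), but 11 of 14 without TMM factors and 9 of 14 without EGCG-treated senEC library 2 (median 0.08).

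The mitochondrial chaperones and proteases, partners of HSPD1, gave a like picture. All 10 were above 0 against mono-culture in each co-culture, but 9 of 10 for both senEC groups without TMM factors, with medians of 0.14, 0.19 and 0.17 for control EC, senEC and EGCG-treated senEC, and 4 reached an unadjusted p under 0.05 with senECs (HSPA9, TRAP1, HSPE1 and CLPP, adjusted p of 0.199 and above), 0 with control ECs and 2 with EGCG-treated senECs. The shares above 0 among the genes with at least 10 CPM were 52.9%, 59.9% and 57.9% in the same order. Those at an unadjusted p under 0.05 were 7.97%, 19.2% and 12.2%. HSPA9, the mitochondrial HSP70, had a mean of 588 ± 11 CPM in mono-culture and 693 ± 42 CPM with senECs (SD, n = 3). TRAP1, the mitochondrial HSP90, had 128 ± 11 and 155 ± 8 CPM, and the protease LONP1 262 ± 16 and 296 ± 20 CPM. HSPE1, the co-chaperonin that caps HSPD1, was at 52.5, 75.7 and 67.2 CPM in mono-culture and 67.4, 79.1 and 111 CPM with senECs, with overlap. Its exons and those of HSPD1 overlap on opposite strands over 6.62% of the HSPD1 exons. The highest senEC library of HSPE1, PFDN4 and CCT3 was number 5, which also had the lowest TMM factor, and without that library the median of the mitochondrial list for senEC against mono-culture was 0.16.

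Of 12 HSP90 co-chaperones, FKBP4, an immunophilin of steroid receptor complexes, had the smallest p in each co-culture, and 1, 3 and 3 of the 12 had an unadjusted p under 0.05 against mono-culture for control EC, senEC and EGCG-treated senEC. It was at 30.4, 41.1 and 31.6 CPM in mono-culture, 44.8, 49.4 and 50.1 CPM in control EC, 46.7, 52.3 and 50.8 CPM in senEC and 41.2, 56.9 and 46.1 CPM in EGCG-treated senEC co-culture. Every co-culture library was above the highest mono-culture library, which held for 6.25%, 8.18% and 6.40% of all genes in these comparisons taken singly. Among the genes with a mean of at least 10 CPM these shares were 8.57%, 15.6% and 10.8%. The log2 fold changes were 0.48 ± 0.13, 0.54 ± 0.13 and 0.48 ± 0.13 (SE, unadjusted p = 0.00158, 0.000629 and 0.00166), and the adjusted p of 0.270, 0.0986 and 0.193 missed the threshold. FKBP4 was called by DESeq2 with senECs (adjusted p = 0.0162) but not with control ECs (0.0757) or EGCG-treated senECs (0.0512). It was called in all 3 when every gene with a count was tested (0.0188, 0.00232 and 0.0209) and with the replicate block (0.000495, 0.000552 and 0.00543). STIP1, which links HSP70 to HSP90, was at 289 to 297 CPM in mono-culture and 316 to 399 CPM with senECs (adjusted p = 0.323). PTGES3 (p23) had means of 408 and 483 CPM and the kinase adaptor CDC37 of 268 and 309 CPM in these groups.

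The HSP70 system beyond the genes above had 21 of 22 listed genes tested. Of these, 1, 2 and 0 had an unadjusted p under 0.05 against mono-culture for control EC, senEC and EGCG-treated senEC, and 3 did between senEC and control EC co-culture. HSPA14 is split over rows of the same symbol and was not analysed here. The most abundant were DNAJA1 (304 ± 26 CPM in mono-culture), HSPA4 (271 ± 1.0 CPM) and ST13 (240 ± 14 CPM), whose log2 fold changes against mono-culture lay between -0.05 and 0.09. HSPBP1, an exchange factor, was at 31.0 to 34.4 CPM in mono-culture and 39.9 to 54.2 CPM with senECs (log2 fold change 0.46, unadjusted p = 0.00285, adjusted p = 0.192). In that direction 8.18% of all genes were separated, and 15.6% of those with a mean of at least 10 CPM. HSPA4L was at 44.8 to 55.2 CPM with senECs against 56.4 to 65.6 CPM with control ECs (log2 fold change -0.32, unadjusted p = 0.00752, adjusted p = 0.728). Between these groups 1465 of 25873 genes were separated downward, and 5.04% of those with a mean of at least 10 CPM. DNAJB5, the most variable, ranged from 2.7 to 7.2 CPM.

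Other heat shock factors were low. HSF2, which can form mixed trimers with HSF1, had a mean of 37.9 ± 2.5 CPM in mono-culture and HSF4 of 5.81 ± 0.62 CPM, HSF5 had 4 counts over all 12 libraries, and HSBP1, which binds HSF1 trimers, was at 81.5 ± 8.2 CPM. Their log2 fold changes against mono-culture ran from -0.13 to 0.18, and 0 of the 3 tested had an unadjusted p under 0.05. The list of small heat shock proteins besides HSPB1 was taken by symbol, and HSPB11 stands in it for its symbol and not for its function. HSPB11 had a mean of 57.2 CPM in mono-culture, HSPB7 of 1.72 CPM and HSPB9 of 0.457 CPM. HSPB2, HSPB3, HSPB8 and CRYAA had 0 counts in 12 libraries. CRYAB had 3 counts in all. Of the 4 tested, 0 had an unadjusted p under 0.05 against mono-culture and 1 did between EGCG-treated senEC and control EC co-culture.

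**Figure D5:**
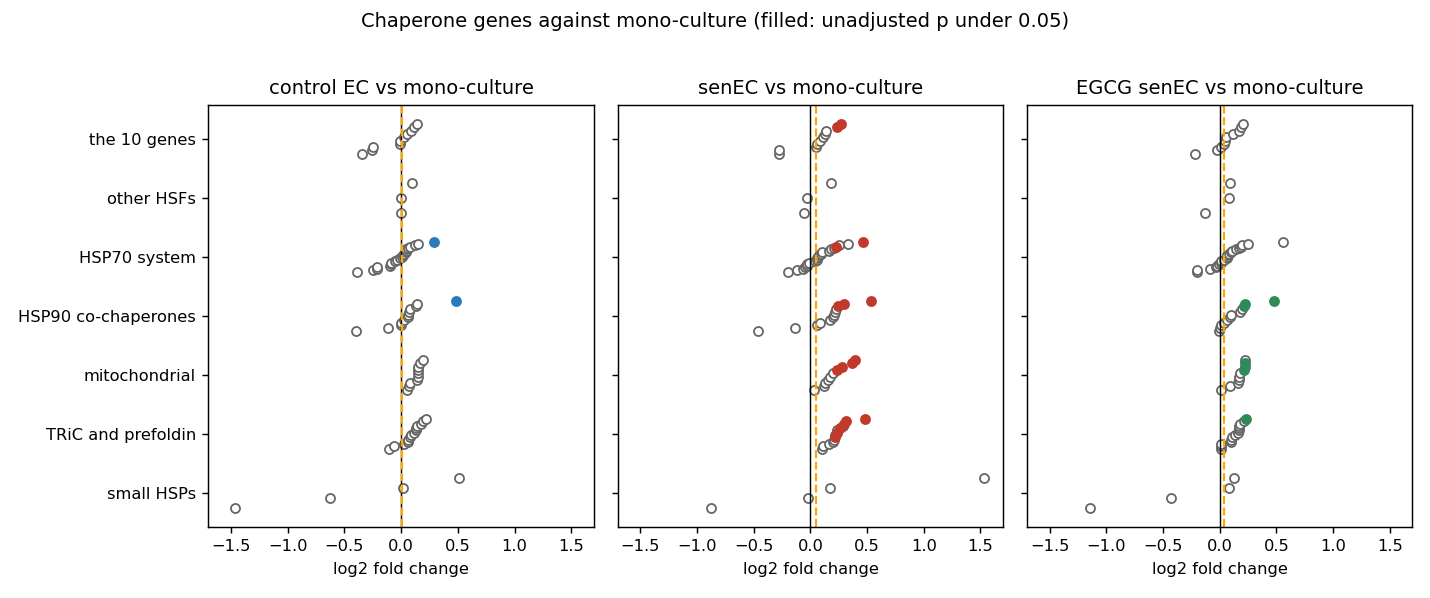
Log2 fold change against mono-culture of each tested gene of the chaperone lists in the 3 co-cultures, with filled points for an unadjusted p under 0.05 and a dashed line at the median of the genes with a mean of at least 10 CPM. The TRiC and prefoldin points and the mitochondrial points lie above 0 for senEC co-culture with TMM factors (without them 1 mitochondrial gene does not), and no point passed the adjusted threshold in the model of the group alone.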

How the data were processed

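RNA-sequencing counts of THP1 cells in 12 libraries were used, grouped by the sample labels. The authors deposited raw counts of reads for each gene symbol, without normalization, from cleaned reads that HISAT2 had aligned to hg38. The counting program and annotation are not given in the sources used here. A further 4 columns match no described sample and were not used.

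The 25873 genes whose counts summed to 10 or more were tested with edgeR 4.0.16 in R 4.3.3 (quasi-likelihood, TMM, Benjamini-Hochberg adjusted p of 0.05), with all 12 libraries in 1 model of the group alone. The number term came from a model of group and replicate number. CPM used TMM library sizes, log2 CPM added a pseudocount of 2, and FPKM used exon lengths of GENCODE release 29 (GRCh38). The standard error of a log2 fold change was its size over the root of F. DESeq2 1.42.0 was an alternative, beside other scalings, filters, a replicate block and each library left out. The model was tested on simulated data for senEC against mono-culture. It called 90 of 100 genes changed 2-fold and 39 of 100 genes changed 1.5-fold, with 20 false calls. The false calls were a larger share of its calls than the 0.05 aimed at. The simulated libraries shared no differences by number, and changes as small as the estimates for the 10 genes were not simulated. It therefore does not show how often changes of that size would be called. Replicate pairs of a group differed beyond sampling noise (chi-square of 9.23 to 33.7 per degree of freedom), so no library was counted as a copy. With 3 libraries a group, an exact permutation test of 1 value cannot go below p = 0.1, and none was run.

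The 10 genes and the lists were chosen with earlier results of these data known. Besides the 10, the rule named, from each list, genes called in any comparison, the 3 with the highest mean and the most variable one with a mean of at least 1 CPM, and the 5 outside genes with the highest Pearson's r with the chaperone mean. CCT3 counts under that rule, while HSPBP1, HSPA4L and CLPP were chosen after their values were seen.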

Additional observations from a re-analysis of the deposited data

How the results depend on the processing

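None of the 10 genes was called in any of the 6 group comparisons under the main design, with 1 library left out at a time (0 to 0), or under the alternatives tried, except that a replicate block with numbers 3 and 5 joined called 1 of 10 for senEC against mono-culture, HSF1 (log2 fold change 0.27, adjusted p = 0.0392). That fit called 1407 of 25873 genes in this comparison. Of the 60 log2 fold changes, 16 changed sign under another scaling, filter, model or subset of groups, the largest of them 0.06 in size, and 30 did so with 1 library left out, the largest 0.32. The number term called 1 of the 10 genes, HSPB1, with at least 10 counts in every library, with numbers 3 and 5 joined in the replicate block, or by DESeq2's likelihood ratio test, where the adjusted p of HSPA1B was 0.0858, 0.0514 and 0.173. With 1 library left out it called 1 to 3. The cause was not tested.

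Over all genes, control EC, senEC and EGCG-treated senEC co-culture against mono-culture gave 37, 80 and 55 calls. DESeq2 gave 116, 339 and 226, a test of every gene with a count 223, 588 and 377 (and 114, 14 and 43 between the co-cultures, in the order below), a minimum of 10 counts in every library 34, 60 and 36, and fits of the 6 libraries compared 52, 20 and 35. Of the senEC calls 50 of 80 were higher, against 26 of 59 without TMM factors. With 1 library left out the counts were 11 to 44, 19 to 255 and 12 to 100, the lowest without mono-culture library 2, senEC library 2 and mono-culture library 2 in turn. The replicate block gave 469, 709 and 424 calls, and 153, 13 and 34 for senEC against control EC, EGCG-treated senEC against senEC and EGCG-treated senEC against control EC, each 0 without it. With numbers 3 and 5 joined these were 400, 1407, 782, 268, 1 and 60. The main model did not take the numbers as a pairing, and the labels do not say what they stand for. Differences between numbers therefore remain in its spread. All 14 same-number pairs of libraries correlated above 0 (r of 0.032 to 0.577), 10 of them above 0.1. The 40 pairs of different number had r of -0.560 to 0.534. Their highest values came from number 3 against number 5. Mono-culture library 3 had r of 0.370 with senEC library 5 and 0.425 with EGCG-treated senEC library 5. For control EC library 3 these were 0.534 and 0.472. The highest r of any other pair of different number was 0.218. In 23 of 28 checks a library correlated best with its own number, a hint from the data only. Few counts limit HSPA1A and HSPA1B, whose intervals were the widest.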
